A study of Oryctolagus cuniculus with 12 samples.

Results

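The interferon-stimulated genes followed here were measured in rabbit conjunctiva after glaucoma filtration surgery. The members are ISG15, MX1, IFIT2, IFIT3, RSAD2, IRF1, IRF7, CXCL10, and CXCL11, chosen by name, and all 9 were found among the 20566 genes of the deposited gene table. Female rabbits (strain written Japanease White in the labels) had a trabeculectomy (TL) with mitomycin C in the right eye, in which aqueous humor is led through a scleral opening into a bleb under the conjunctiva. Conjunctiva with the bleb was taken after 3 hours (TL-3h), 3 days (TL-3d), or 14 days (TL-14d), and conjunctiva of left eyes served as the control group (cont), with 3 libraries in each of the 4 groups. Mitomycin C, a DNA-crosslinking agent, was thus part of every operated group. The study's surgical methods also name rabbits aged 12 to 14 weeks, a betamethasone injection, and an antibiotic ointment, but these libraries were analyzed earlier, and whether the same held for them was not stated, nor was the handling of the control eyes. Which control eye belonged to which operated eye, and when the control tissue was taken, were not given in the sources used here, so the groups were compared as unpaired, and the comparisons at the 3 times share the same control libraries.

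Interferons are secreted when cells sense foreign or misplaced nucleic acid or other danger signals. Type I and type III interferons signal through JAK1 and TYK2 to STAT2 and IRF9, while interferon gamma signals through JAK1 and JAK2. The genes that are switched on encode antiviral effectors, transcription factors that extend the response, and chemokines that draw in lymphocytes. Several of them, such as RSAD2, the IFIT genes, and CXCL10, can also be induced without interferon, by IRF3 or NF-kB. In the conjunctiva, which is exposed to the outside, epithelium and resident or incoming leukocytes can all express them.

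Levels between genes were compared as FPKM, which is divided by transcript length. In the control group, IRF1 (118 ± 33.8 FPKM) and MX1 (115 ± 40.1 FPKM) were the highest members, and CXCL11 (6.77 ± 5.02 FPKM) was the lowest (SD, n = 3 each). At 3 days, MX1 was highest (204 ± 43.4 FPKM), followed by IFIT3 (127 ± 23.3 FPKM), CXCL10 (120.3 ± 41.8 FPKM), IRF7 (114 ± 61.4 FPKM), and ISG15 (109.7 ± 44.2 FPKM), which lay within their spread of each other (SD, n = 3 each). CXCL11 was again the lowest at 16.2 ± 3.96 FPKM. All further levels are CPM, the counts scaled to a common library size after TMM adjustment, and differences are log2 fold changes with their standard error (SE) from the edgeR quasi-likelihood test. There q is the p-value adjusted over the 14835 genes tested by the Benjamini-Hochberg method, with a threshold of 0.05. All 9 members passed the filter on low counts.

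**Figure D1:**
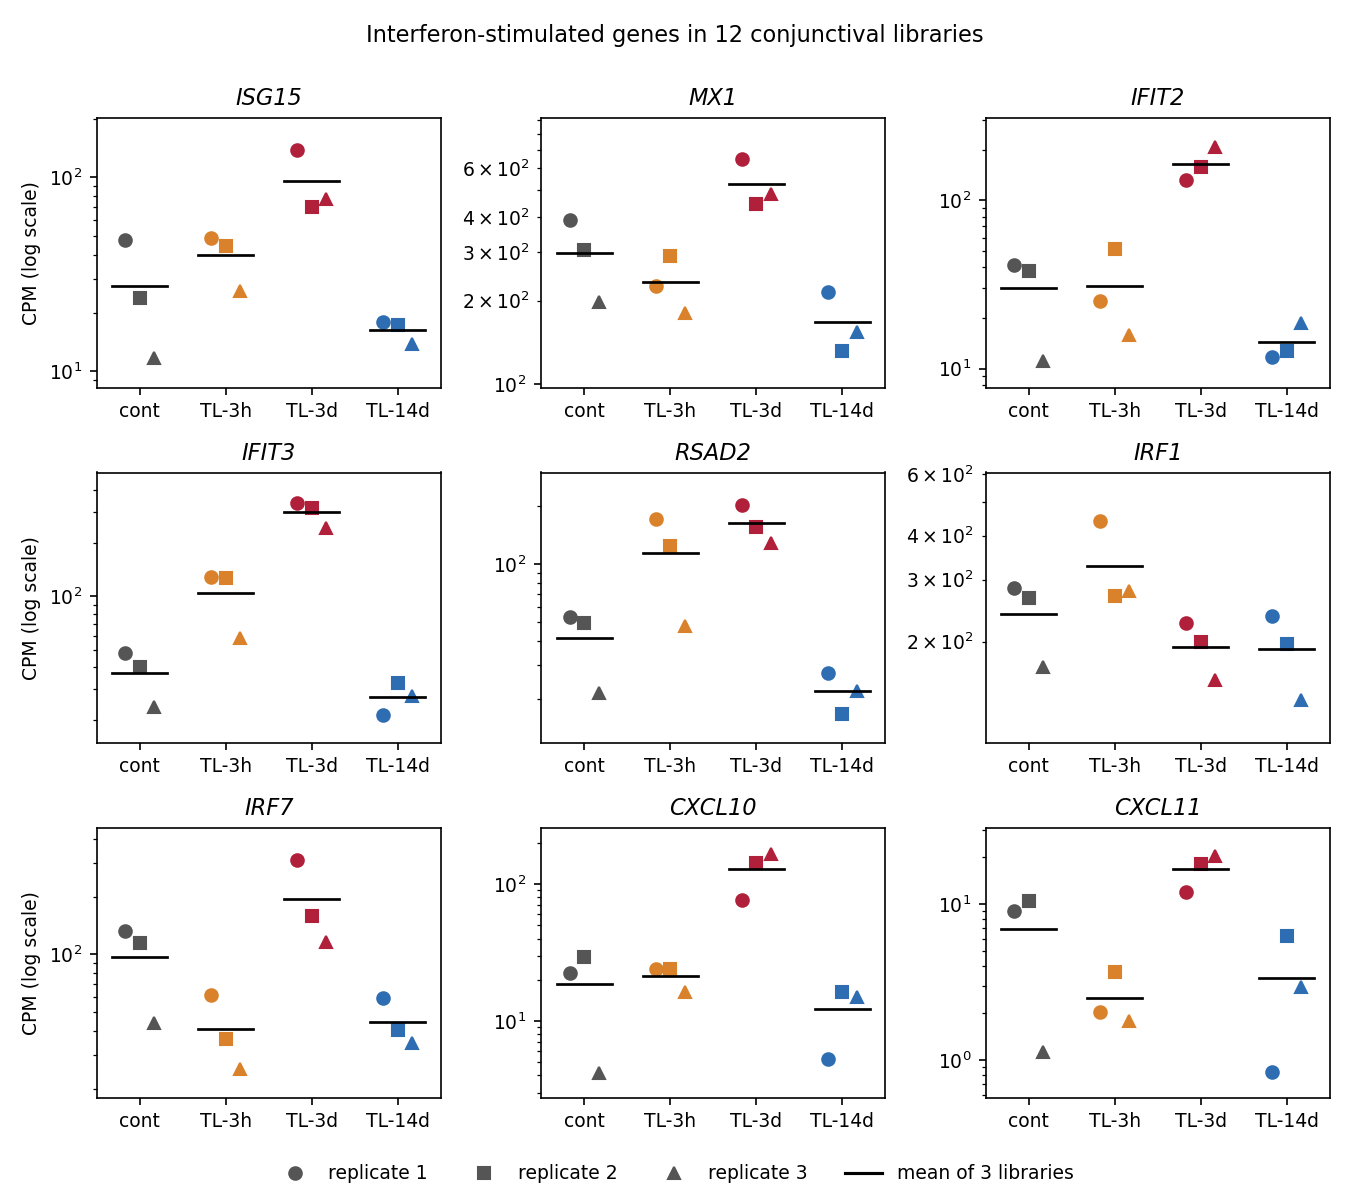
Level of each member in every library, as CPM on a log axis against the group (cont, TL-3h, TL-3d, TL-14d). Symbols give the replicate number and horizontal bars the mean of 3 libraries. The TL-3d libraries sit above all control libraries for 7 of the 9 genes, IRF1 and IRF7 being the exceptions, and control replicate 3 is the lowest control library for all 9.

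The libraries held 27111276 to 38591374 counts. Epithelial markers were high in all of them, with the 12 listed epithelial genes in the table summing to 7971 to 24594 CPM, as the labelled tissue should show. Control replicate 3 had the lowest level of all 9 members among the controls, between 1.68 and 9.33 times below the highest control library, and the highest sum of 7 fibroblast markers (76496 CPM, against 12213 and 35553 CPM in replicates 1 and 2). The same list summed to 105219 to 125796 CPM at 3 hours, above every control, and to 1347, 11797, and 64879 CPM at 3 days, although none of its genes was past the threshold against control at either time by edgeR. TL-3d replicate 3 also stood apart in 3 skeletal muscle markers (315 CPM, against under 1 CPM in the other TL-3d libraries), as did control replicate 2 (206 CPM). Endothelial markers (6 genes) summed to 71.9 to 316 CPM in the controls, 643 to 1280 CPM at 3 hours, and 359 to 655 CPM at 3 days. TL-14d replicate 1 resembled the controls in its neutrophil markers (sum 3.70 CPM, against 2076 and 202 CPM in replicates 2 and 3). The neutrophil list (9 genes in the table) summed to 4.32 to 103 CPM in the controls, 1260 to 3375 CPM at 3 hours, and 285 to 957 CPM at 3 days. The monocyte and macrophage list (11 genes) summed to 142 to 887 CPM in the controls, 917 to 1383 CPM at 3 hours, 1589 to 2616 CPM at 3 days, and 194 to 485 CPM at 14 days. Plasmacytoid dendritic cell markers (4 genes, among them IRF8, which is also a listed regulatory factor) summed to 24.7 to 61.7 CPM in the controls, 61.7 to 92.4 CPM at 3 hours, 62.6 to 101.8 CPM at 3 days, above every control, and 19.9 to 67.4 CPM at 14 days. Of these 4 genes, 2 were higher than control at 3 hours and 2 at 3 days. The B and plasma cell list (7 genes) overlapped between all groups, at 892 to 3890 CPM. No listed marker in the table was at 0 in every library. In such tissue, more cells of a type and more RNA per cell cannot be told apart, and the part of these shifts in the results was not tested.

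IFIT3, which encodes an antiviral effector that works together with IFIT1 (gene ID 100341810, chromosome 18 of OryCun2.0, 37240846 to 37246063, plus strand), had the largest rise over control at 3 days. Its level was 48.0, 40.0, and 23.7 CPM in the control libraries, 129, 126, and 58.5 CPM at 3 hours, 335, 317, and 244 CPM at 3 days, and 21.5, 32.5, and 27.6 CPM at 14 days. The order was thus TL-3d, then TL-3h, then the controls and TL-14d, which overlapped. It rose at 3 hours (log2 fold change 1.49, SE 0.34, q = 0.00531) and further at 3 days (3.00, SE 0.36, q = 0.00695), an 8.02-fold increase over control. IFIT2 (gene ID 100341555), an effector of the same family, lies 6151 bases before IFIT3 on the same strand (37228145 to 37234694). It was at 41.2, 37.8, and 11.1 CPM in the controls, 25.1, 51.4, and 15.9 CPM at 3 hours, 132, 157, and 207 CPM at 3 days, and 11.7, 12.7, and 18.8 CPM at 14 days. Here the 3-hour libraries overlapped the controls (0.04, SE 0.51, q = 0.961), and the gene was higher than control at 3 days (2.46, SE 0.53, q = 0.0178). Both genes fell about 11-fold between 3 and 14 days, by 3.46 for IFIT3 (SE 0.37, q = 0.0175) and by 3.52 for IFIT2 (SE 0.56, q = 0.0248) on the log2 scale.

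ISG15 encodes a ubiquitin-like protein that is attached to other proteins or secreted (gene ID 100354504, unplaced scaffold NW_003160366.1, 9963 to 26864, minus strand). Its libraries held 47.3, 23.9, and 11.6 CPM in the control group and 48.9, 44.3, and 25.9 CPM at 3 hours, which overlapped (log2 fold change 0.52, SE 0.46, q = 0.387). At 3 days they held 139, 70.0, and 77.7 CPM, all above the controls (1.79, SE 0.47, q = 0.0307), and at 14 days 18.0, 17.3, and 13.9 CPM. RSAD2 encodes viperin, which makes a chain-terminating nucleotide (gene ID 100347276, unplaced scaffold NW_003159347.1, 3370502 to 3384321, plus strand). It was at 53.5, 49.6, and 21.4 CPM in the controls, 171, 124, and 47.9 CPM at 3 hours, 203.4, 157, and 129 CPM at 3 days, and 27.3, 16.8, and 22.1 CPM at 14 days. RSAD2 rose at 3 hours (1.46, SE 0.46, q = 0.0256), although TL-3h replicate 3 lay within the controls, and was again higher than control at 3 days (1.97, SE 0.47, q = 0.0228). From 3 hours to 3 days its difference was 0.51 (SE 0.45, q = 0.401), so the levels of the 2 times did not differ beyond their spread.

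MX1 encodes a dynamin-like GTPase that traps viral components (gene ID 100359014, unplaced scaffold NW_003159681.1, 98673 to 115766, plus strand). Per library it was at 391, 304, and 198 CPM in the controls, 226, 291, and 181 CPM at 3 hours, 650.1, 446, and 485 CPM at 3 days, and 215, 131, and 154 CPM at 14 days. The 3-day libraries lay above all others, but the difference from control missed the threshold (log2 fold change 0.83, SE 0.29, q = 0.074). Compared with 3 hours, MX1 was higher at 3 days (1.18, SE 0.29, q = 0.0106), and it fell from 3 to 14 days by 1.66 on the log2 scale (SE 0.30, q = 0.0297). It had the highest FPKM of the 9 members at 3 days. Of its 12 count values, 10 were not whole numbers, and the cause was not tested.

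IRF1 and IRF7 encode transcription factors, IRF1 being rapidly induced by interferon gamma and cytokines and IRF7 amplifying type I interferon production. IRF1 (gene ID 100328724, chromosome 3, 15530701 to 15537292, minus strand) was at 285, 266, and 170 CPM in the controls, 439, 269, and 278 CPM at 3 hours, 226, 199.6, and 155 CPM at 3 days, and 236, 197, and 137 CPM at 14 days. No comparison of IRF1 passed the threshold, and its log2 fold changes were 0.45 at 3 hours (SE 0.28, q = 0.223), -0.31 at 3 days (SE 0.28, q = 0.455), and -0.34 at 14 days (SE 0.28, q = 0.703). All 3-day libraries of IRF1 were below all 3-hour libraries (-0.76, SE 0.29, q = 0.0582, with a range of -0.89 to -0.28 over the alternatives), while the values of the other 8 members were positive. The value of -0.28 is that under library size alone, where the median over all genes moved from -0.05 to 0.43. IRF7 (gene ID 100358763, unplaced scaffold NW_003160537.1, 2392 to 5075, plus strand) was at 133, 115, and 43.8 CPM in the controls, 61.3, 36.1, and 25.4 CPM at 3 hours, 311, 159, and 115 CPM at 3 days, and 59.1, 40.3, and 34.6 CPM at 14 days. Against the controls, it missed the threshold at 3 hours (-1.25, SE 0.50, q = 0.0649) and at 3 days (1.01, SE 0.49, q = 0.17). Between these times IRF7 rose 4.76-fold (2.25, SE 0.51, q = 0.00683), and its difference from 3 to 14 days was -2.13 (SE 0.51, q = 0.0609).

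CXCL10 and CXCL11 encode chemokines that attract activated T and NK cells through CXCR3, and lie 22428 bases apart on the plus strand of chromosome 15 (CXCL11, gene ID 100340593, 74344568 to 74346546; CXCL10, gene ID 100353112, 74368975 to 74371297). CXCL10 was at 22.5, 29.4, and 4.14 CPM in the controls, 23.9, 23.9, and 16.4 CPM at 3 hours, 76.4, 142, and 165 CPM at 3 days, and 5.25, 16.3, and 15.1 CPM at 14 days. Its 3-hour level lay within the controls (log2 fold change 0.19, SE 0.62, q = 0.83), and at 3 days it was 6.84-fold higher than control (2.77, SE 0.66, q = 0.0232). CXCL11 had the lowest levels, with 9.09, 10.5, and 1.13 CPM in the controls, 2.04, 3.69, and 1.79 CPM at 3 hours, 11.99, 18.0, and 20.4 CPM at 3 days, and 0.841, 6.28, and 2.93 CPM at 14 days. The 3-day libraries of CXCL11 lay above all controls, yet the difference was not past the threshold (1.28, SE 0.79, q = 0.267), and control replicate 3 was far below the other controls. CXCL11 rose from 3 hours to 3 days (2.74, SE 0.84, q = 0.0268). CXCL10 fell from 3 to 14 days by 3.39 on the log2 scale (SE 0.68, q = 0.0386), and the difference for CXCL11 was -2.32 (SE 0.82, q = 0.141).

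**Figure D2:**
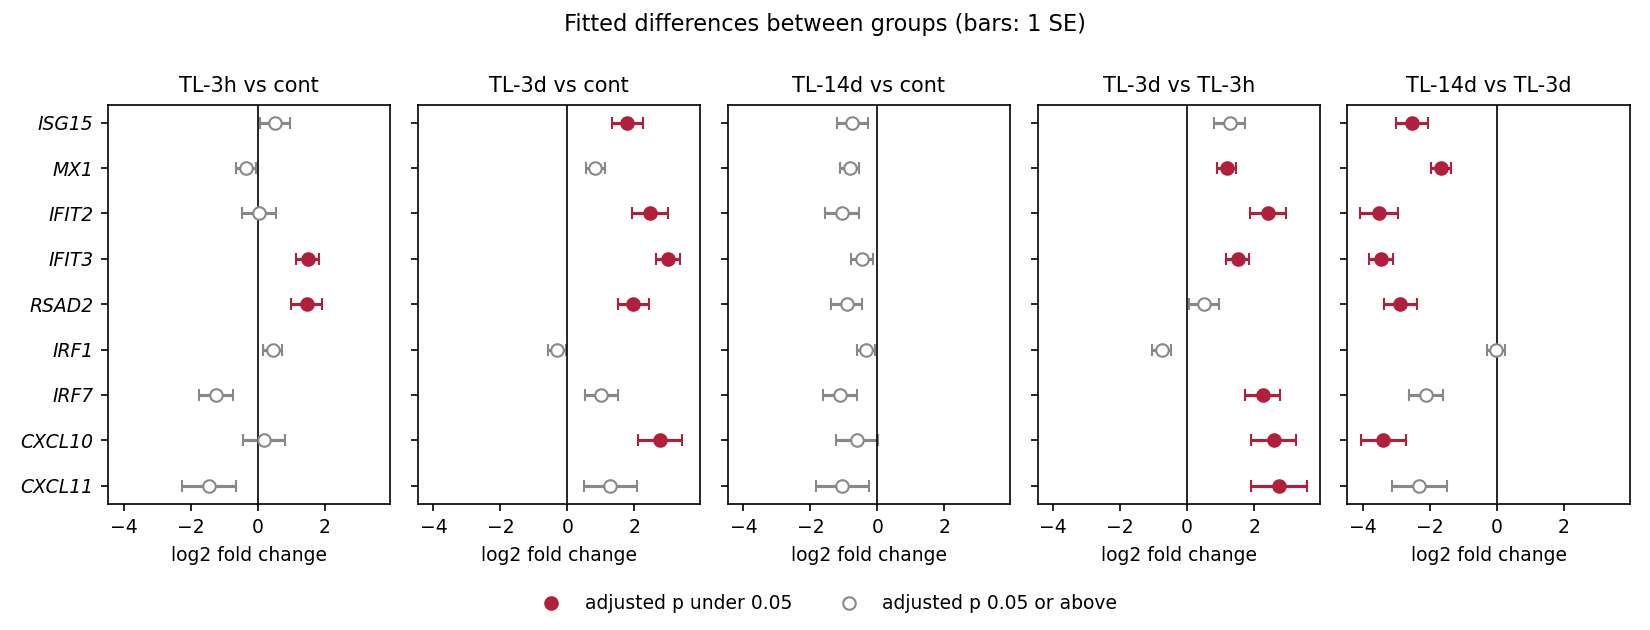
Fitted log2 fold change of each member (vertical axis) in 5 comparisons, with bars of 1 SE. Filled red points have an adjusted p under 0.05 and open grey points do not, which gives 2, 5, 0, 6, and 6 filled points from left to right, and TL-14d lies below control for all 9 genes without passing the threshold for any.

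At 3 hours, when the injury response is at its start, 2 of the 9 members (IFIT3 and RSAD2) were past the threshold, both higher, beside 23.2% of all genes tested that were higher and 22.2% that were lower. Only IFIT3 had every TL-3h library above every control, which 28.9% of all genes did. The median log2 fold change was 0.19 over the members and 0.02 over all genes. Among the other genes of the pathway, 22 of 101 tested rose and 19 fell. Of the 36 effectors, 9 were lower, a share near that of all genes, such as SP110 (-1.98, SE 0.36, q = 0.00151) and OASL (-1.55, SE 0.35, q = 0.0052), an oligoadenylate synthetase-like protein, and with IFIT5 (0.94, SE 0.26, q = 0.0144) and SAMD9 (0.93, SE 0.28, q = 0.0211) as the 2 that rose. Of the 9 feedback inhibitors, 5 were higher and 0 lower by edgeR, and the difference between the lists was not tested. SOCS3, which blocks JAK kinases, went from 10.1 ± 11.2 to 521 ± 175 CPM (5.68, SE 0.92, q = 0.000832), SOCS1 from 0.945 ± 0.120 to 6.78 ± 3.45 CPM (2.84, SE 0.53, q = 0.00176), and the phosphatase PTPN2 rose 2.40-fold (q = 0.000326).

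Of 23 targets of the interferon gamma type, 5 were higher and 4 lower at 3 hours, shares near the 23.2% and 22.2% of all genes. IDO1, which degrades tryptophan, rose from 6.76 ± 7.66 to 799 ± 346 CPM (log2 fold change 6.89, SE 1.47, q = 0.00378), CD274, the checkpoint ligand PD-L1, from 2.86 ± 1.78 to 90.8 ± 35.4 CPM (4.99, SE 1.03, q = 0.00322), and the adhesion molecule ICAM1 by 4.36-fold (q = 0.00194). NLRC5 and CIITA, the activators of MHC class I and class II genes, fell (NLRC5 -1.98, SE 0.42, q = 0.00372; CIITA -1.66, SE 0.42, q = 0.00913). Of 12 receptors and transducers, 5 rose and 1 fell. IFNGR1, a chain of the interferon gamma receptor, rose from 93.6 ± 16.7 to 456 ± 91.5 CPM (2.29, SE 0.23, q = 7.31e-05), JAK2 3.29-fold (q = 3.99e-05), and IL10RB, a chain of the interferon lambda receptor, 2.24-fold (q = 0.00427), while the kinase TYK2 fell (-0.99, SE 0.21, q = 0.00343). Among 13 sensors and adaptors, TMEM173, which encodes STING, rose (2.65, SE 0.36, q = 0.000312), as did MYD88 (1.55, SE 0.16, q = 8.28e-05) and TREX1 (0.94, SE 0.34, q = 0.0427), and the RNA sensor TLR3 (-1.68, SE 0.36, q = 0.0036) and the adaptor MAVS (-1.67, SE 0.20, q = 0.000194) fell. Of the 5 other interferon regulatory factors, IRF8 rose (1.39, SE 0.48, q = 0.0378) and IRF5 (-0.59, SE 0.18, q = 0.0237) and IRF2 (-0.41, SE 0.14, q = 0.0339) fell. All 7 tested neutrophil markers also rose at 3 hours (median 5.97), and the part of incoming cells in these changes was not tested.

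The scaling matters at 3 hours. With library size alone in place of TMM, the median over all genes was -0.47, RSAD2 was no longer past the threshold (q over its 21 alternatives 0.00671 to 0.122), MX1 at 3 hours (-0.87) and IRF7 at 3 hours (-1.77) were past it on the lower side, and ISG15, IFIT2, IRF1, and CXCL10 were at or below 0 with this shift of all genes. Set beside that median, ISG15 and IRF1 lay above it and CXCL10 and IFIT2 near it. These offsets were not tested, and none of these genes was past the threshold at 3 hours with TMM. IFIT3 stayed higher than control in every alternative (q 0.000352 to 0.04). RSAD2 also lost the call without control replicate 3 or TL-3h replicate 1 or 2, and 1 member was left past the threshold in the last of these cases. Without control replicate 3, IRF7 at 3 hours (-1.65) and CXCL11 at 3 hours (-2.02) were past it on the lower side. IRF7 was so in 7 of its 21 alternatives (q 0.00293 to 0.2), also without TL-3h replicate 1 (-1.71) or TL-3d replicate 1 (-1.25), CXCL11 in 2 (q 0.00461 to 0.407), and MX1 in 1 (q 0.0371 to 0.813). Of the pathway genes, 57 were past the threshold under library size alone, 13 of them higher.

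At 3 days, 5 of the 9 members (ISG15, IFIT2, IFIT3, RSAD2, and CXCL10) were higher than control and none was lower, beside 10.6% of all genes tested that were higher and 7.0% that were lower. Of the 4 members that were not past the threshold, MX1, IRF7, and CXCL11 had positive values (0.83 to 1.28) and IRF1 a negative one. For 7 members, every TL-3d library lay above every control, as for 23.8% of all genes. The median log2 fold change was 1.79 over the members and 0.00 over all genes. Of the 101 other pathway genes tested, 30 rose, 1 fell, and the others did not pass the threshold. Of the 36 effectors, 10 rose, among them the exonuclease ISG20 (2.18, SE 0.50, q = 0.0208), the oligoadenylate synthetase OAS2 (1.97, SE 0.35, q = 0.0115), and EPSTI1 (1.94, SE 0.33, q = 0.011). OAS2 was at 57.9, 44.5, and 24.8 CPM in the controls and at 235, 149, and 114 CPM at 3 days, with no overlap.

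The sensors had 5 of 13 genes higher at 3 days, and this and the list counts that follow stand beside 10.6% of all genes higher. They included MB21D1, which encodes the DNA sensor cGAS (log2 fold change 1.86, SE 0.47, q = 0.0279), TMEM173 (1.59, SE 0.35, q = 0.018), and DHX58, a helicase of the RIG-I family (1.32, SE 0.29, q = 0.018). IRF5 (1.51, SE 0.18, q = 0.00695) and IRF8 (1.68, SE 0.49, q = 0.0415), which are used by myeloid cells, were higher as well. Of 12 receptors and transducers, IFNGR1 (1.12, SE 0.22, q = 0.0148), JAK2 (0.67, SE 0.14, q = 0.0174), and IFNAR1, a chain of the type I receptor (0.60, SE 0.17, q = 0.0382), rose. STAT2 and IRF9, named after their values were seen, did not pass the threshold, with 0.61 for STAT2 (SE 0.24, q = 0.0951) and -0.04 for IRF9 (SE 0.24, q = 0.911). Interferon gamma type targets rose in 7 of 23 cases, led by IDO1 (4.37, SE 1.31, q = 0.0457), CD274 (3.91, SE 0.98, q = 0.027), and LOC100358696, which matches FCGR1A by gene ID (3.11, SE 0.75, q = 0.0236).

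CXCL9, the chemokine that shares the receptor of CXCL10 and is most tied to interferon gamma, is set beside it after its values were seen. It was at 5.93, 3.98, and 1.35 CPM in the controls and 1.20, 2.19, and 1.25 CPM at 3 days, with a log2 fold change of -1.28 (SE 0.85, q = 0.298). Of the 23 tested interferon gamma type targets, to which CXCL9 belongs, 7 rose and 0 fell at 3 days by edgeR. The receptor CXCR3 was at 2.04 ± 0.748 CPM in the controls, 0.739 ± 0.438 CPM at 3 hours, and 2.72 ± 1.98 CPM at 3 days (SD, n = 3 each). It was not past the threshold against control at 3 days (0.42, SE 0.63, q = 0.666) and rose from 3 hours to 3 days (1.88, SE 0.66, q = 0.047). DPP4, the peptidase that trims CXCL10, fell at 3 hours (-0.98, SE 0.22, q = 0.00457) and was lower than control at 3 days (-0.73, SE 0.22, q = 0.043). ACKR3, the scavenger receptor of CXCL11, rose at 3 hours (2.29, SE 0.46, q = 0.00259). The T and NK cell list (12 genes) summed to 21.7 to 54.0 CPM in the controls and 13.5 to 37.1 CPM at 3 days, and 0 of its 12 genes rose and 1 fell at 3 days by edgeR. Monocyte and macrophage markers rose in 6 of 11 cases at 3 days (median 2.72). Of the feedback inhibitors, SOCS3 (3.22, SE 0.82, q = 0.028), USP18, which cuts ISG15 off its targets (1.86, SE 0.37, q = 0.0155), and the phosphatase PTPN1 (0.78, SE 0.22, q = 0.0363) rose. The calls at 3 days, but not the direction, depended on single libraries. Over the 21 alternatives the log2 fold change ran from 1.40 to 2.43 for ISG15, 2.05 to 2.75 for IFIT2, 1.64 to 2.20 for RSAD2, and 2.29 to 3.26 for CXCL10. The count was 2 members without control replicate 1 and 1 member without control replicate 2 or TL-3d replicate 1 or 2, and IFIT3 stayed past the threshold in every alternative (q 2.46e-13 to 0.0363). The q over the alternatives reached 0.107 for ISG15, 0.0569 for IFIT2, 0.0742 for RSAD2, and 0.071 for CXCL10.

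At 14 days, all 9 members had a mean below the control mean, with log2 fold changes from -0.34 (IRF1) to -1.12 (IRF7), and none was past the threshold in the edgeR test, as for 0% of all genes. An unadjusted p under 0.05 was reached by 2 members, MX1 (-0.83, SE 0.29, q = 0.405) and IRF7 (-1.12, SE 0.50, q = 0.479), and by 10.4% of all genes. DESeq2 and limma called 0 of the 9 members, and 370 and 0 of all genes. No member had every TL-14d library below every control, against 5.11% of all genes, and control replicate 3 lay below all TL-14d libraries for ISG15, IFIT2, and CXCL10. The medians were -0.83 over the members and 0.02 over all genes. Among the 101 other pathway genes, 0 were past the threshold by edgeR and 2 by DESeq2. With control replicate 3 and TL-14d replicate 1 both left out, an alternative chosen after seeing the data, MX1 passed the threshold on the lower side (-1.30, and q over its alternatives 0.0361 to 0.978), as did 10 pathway genes. Control replicate 3 was the lowest control library for all 9 members, so leaving it out by itself lowers their differences from control. The count over all genes is not given for this alternative.

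The change from 3 hours to 3 days was tested directly. Of the members, 6 rose (MX1, IFIT2, IFIT3, IRF7, CXCL10, and CXCL11), beside 18.4% of all genes higher and 19.0% lower. Of the remaining members, ISG15 had 1.27 (SE 0.46, q = 0.0547) and RSAD2 and IRF1 were not past the threshold either. Every TL-3d library lay above every TL-3h library for 7 members (26.2% of all genes) and below for 1, IRF1 (28.5% of all genes). The medians were 1.51 over the members and -0.05 over all genes. Monocyte and macrophage markers were higher in 3 of 11 cases and lower in 0 in the same comparison (median 0.80). Fibroblast markers were lower in 1 of 7 cases and higher in 0 (median -2.12). The part of such shifts in the result was not tested. Among the 36 other effectors, 26 rose and 0 fell by edgeR, with a median of 1.19. EPSTI1 rose from 6.25 ± 0.681 to 52.7 ± 13.3 CPM (3.08, SE 0.34, q = 0.000147), IFI44 by 2.51 (SE 0.35, q = 0.000435), and LGALS9, which encodes galectin-9, by 2.65 (SE 0.74, q = 0.0179). Several genes that were higher than control at 3 hours fell between these times. SOCS1 (-2.50, SE 0.52, q = 0.00416), SOCS3 (-2.46, SE 0.79, q = 0.0336), ICAM1 (-1.23, SE 0.39, q = 0.0321), IFNGR1 (-1.17, SE 0.22, q = 0.00254), JAK2 (-1.04, SE 0.14, q = 0.000454), MYD88 (-0.87, SE 0.16, q = 0.00199), TMEM173 (-1.05, SE 0.34, q = 0.0338), and ACKR3 (-2.37, SE 0.46, q = 0.00282), fell.

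Further genes that rose between 3 hours and 3 days were CIITA (log2 fold change 3.10, SE 0.44, q = 0.000541), NLRC5 (1.59, SE 0.42, q = 0.0137), LOC100358696 (2.54, SE 0.73, q = 0.0208), IRF5 (2.09, SE 0.19, q = 4.71e-05), IRF2 (0.51, SE 0.14, q = 0.0167), USP18 (2.11, SE 0.38, q = 0.00189), STAT2 (0.98, SE 0.24, q = 0.00912), TYK2 (1.17, SE 0.21, q = 0.00178), TLR3 (1.34, SE 0.35, q = 0.0137), and the RNA sensors DHX58 (1.48, SE 0.29, q = 0.00299) and IFIH1 (1.25, SE 0.25, q = 0.00384). In this comparison MX1, IFIT2, IFIT3, IRF7, and CXCL10 were past the threshold in all 21 alternatives. CXCL11 lost the call without TL-3h replicate 1 or 3 or TL-3d replicate 2 or 3 (q 0.00101 to 0.0871 over its alternatives), and 5 to 7 members were past the threshold with any 1 library removed. ISG15 gained it without control replicate 1 or 3, and in 5 other alternatives (q 0.0125 to 0.189).

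From 3 to 14 days, 6 members fell (ISG15, MX1, IFIT2, IFIT3, RSAD2, and CXCL10), beside 1.59% of all genes lower and 0.647% higher. Every TL-14d library lay below every TL-3d library for 8 members, all but IRF1, as for 14.0% of all genes. The medians were -2.54 over the members and 0.03 over all genes. Monocyte and macrophage markers were lower in 3 of 11 cases in the same comparison (median -2.08), and their part in the result was not tested. The log2 fold change was -2.54 for ISG15 (SE 0.48, q = 0.0344) and -2.89 for RSAD2 (SE 0.49, q = 0.0263). Of the other pathway genes, 26 of 101 fell and 0 rose by edgeR, 16 of them effectors, such as OAS2 (-2.67, SE 0.36, q = 0.019) and LOC100345779, which matches HERC6 (-2.12, SE 0.40, q = 0.034). USP18 (-2.68, SE 0.39, q = 0.0226), TMEM173 (-1.99, SE 0.35, q = 0.0291), the RNA sensor DDX58 (-1.56, SE 0.20, q = 0.019), BATF2 (-2.45, SE 0.54, q = 0.0496), WARS (-1.43, SE 0.31, q = 0.0459), IRF5 (-1.0, SE 0.18, q = 0.0314), IFNGR1 (-1.28, SE 0.22, q = 0.027), and JAK2 (-0.85, SE 0.14, q = 0.0263) fell as well. Over the 21 alternatives the log2 fold change ran from -3.61 to -3.31 for IFIT3, from -2.72 to -2.17 for ISG15, from -2.40 to -1.62 for IRF7, and from -3.15 to -1.86 for CXCL11, and it stayed negative for every member but IRF1. No member was past the threshold without TL-3d replicate 1 or 2 or TL-14d replicate 3, 1 without TL-14d replicate 1, 2 without TL-3d replicate 3, and 3 without control replicate 2. Over the alternatives, q reached 0.0648 for IFIT3 and 0.123 for CXCL10, and slightly more for ISG15.

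**Figure D3:**
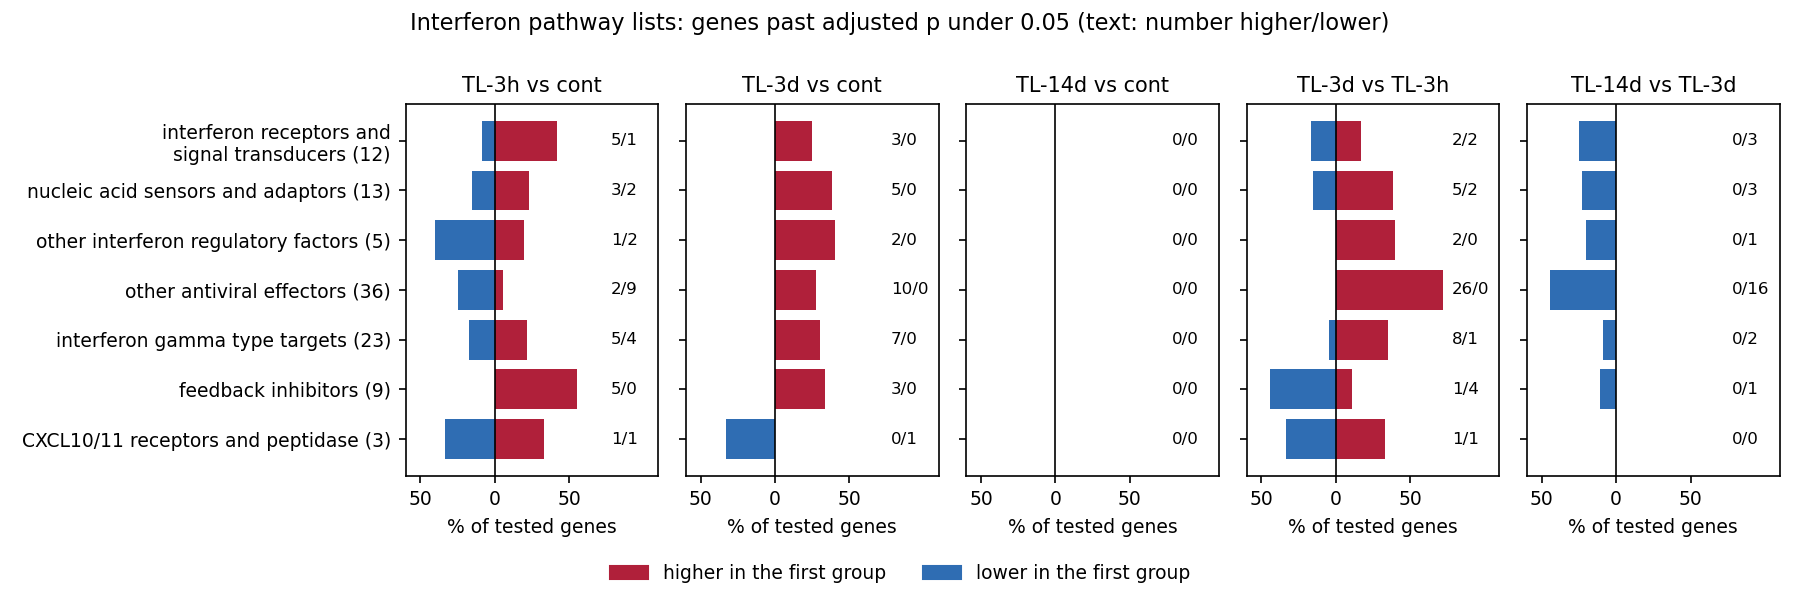
Share of the tested genes of 7 interferon pathway lists (number tested in brackets) with an adjusted p under 0.05, in percent. Bars go to the right for genes higher and to the left for genes lower in the first group of each panel title. That group is the operated one against control, and the later time where operated groups are compared. The numbers beside the bars count genes higher and lower, and the effectors show 2 and 9 at 3 hours, 10 and 0 at 3 days, 26 and 0 from 3 hours to 3 days, and 0 and 16 from 3 to 14 days.

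The interferons themselves were near the limit of detection. Of 10 listed ligands, IFNB1, IFNE, IFNK, and IFNG were in the table by name, and none passed the filter. IFNG had counts of 5, 15, and 1 in the controls, 2, 10, and 4 at 3 hours, 0, 2, and 5 at 3 days, and 0 in the TL-14d libraries. IFNB1 had 2 counts in TL-3d replicate 3 and 0 elsewhere, and IFNK had 0 throughout. IFNE, which epithelia of mucosal surfaces can make, had 0 counts in the controls, 3, 2, and 0 at 3 hours, 7, 11, and 3 at 3 days, and 7, 22, and 8 at 14 days. Where no read was counted, up to 3 counts (0.0712 to 0.124 CPM in these libraries) remain possible. By their description, 17 rows without a symbol are alpha or omega interferons and 2 are lambda interferons, with 12 and 9 counts in all over the 12 libraries. These rows and those of the next sentences were chosen by description after the files were seen. All 3 TL-14d libraries of IFNE were above the allowance of 3 counts, with all 3 control libraries at 0, and IFNG was at 0 in every TL-14d library. That allowance covers counting error and not the spread between animals, so it does not show a difference between groups. No ligand was tested, since none passed the filter.

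Family members without a symbol were set beside the named genes. Of the 4 rows described as IFIT1-like, 0 were past the threshold at 3 hours by edgeR, with 2 higher at 3 days, 3 higher from 3 hours to 3 days, and 4 lower from 3 to 14 days. The most abundant, LOC100342826, was at 110, 75.0, and 41.6 CPM in the controls and 438, 362, and 263 CPM at 3 days. All 12 of its count values were fractions, and its values are uncertain where reads of similar genes were divided. The Mx2 rows differed in size, with log2 fold changes at 3 days of 1.89 for LOC100009451 (SE 0.34, q = 0.0123) and 0.74 for LOC100008606 (SE 0.31, q = 0.113). Of the 9 tested guanylate-binding protein rows, a family induced strongly by interferon gamma, 0 were past the threshold at 3 days by edgeR (median 0.19), beside 10.6% of all genes that were higher, and 2 were lower at 3 hours. LOC100349257, described as guanylate-binding protein 5, was at 30.9, 31.0, and 17.7 CPM in the controls and 74.2, 72.1, and 68.1 CPM at 3 days, with no overlap (1.43, SE 0.48, q = 0.0645). LOC100358539, described as guanylate-binding protein 1, did not overlap either, with 78.8, 82.8, and 52.5 CPM in the controls and 168, 145, and 148 CPM at 3 days (1.11, SE 0.52, q = 0.153).

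Transcripts of the members did not all move alike. The transcript table holds 18 transcripts of the 9 genes, and at 3 hours 5 were higher and 1 was lower after adjustment over 26082 transcripts, of which 28.3% were past the threshold. A pair of minor IRF1 models rose while the main ones were not past the threshold. XM_008254884.2 went from 3.89, 3.44, and 5.11 CPM in the controls to 40.2, 14.3, and 22.4 CPM at 3 hours (log2 fold change 2.63, SE 0.71, q = 0.0201), and XM_008254883.2 from 3.26, 6.30, and 5.06 CPM to 44.0, 17.6, and 20.2 CPM (2.48, SE 0.52, q = 0.00598). The 2 main models, XM_008254880.2 and XM_008254882.2, had 0.22 (SE 0.28, q = 0.619) and 0.27 (SE 0.29, q = 0.543). Both minor IRF1 models fell again from 3 hours to 3 days (-2.36, q = 0.0385, and -2.11, q = 0.0164), a comparison in which 21.4% of transcripts were past the threshold. For ISG15, the minor XM_008253589.2 rose at 3 hours (1.71, SE 0.41, q = 0.012), while the main XM_017340429.1 had 0.27 (SE 0.50, q = 0.748). The MX1 model XM_008252473.2 fell at 3 hours (-1.35, SE 0.42, q = 0.0349) and rose from 3 hours to 3 days (2.20, SE 0.43, q = 0.00532).

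At 3 days, 4 transcripts of the members were past the threshold, those of IFIT2, IFIT3, and CXCL10 and the main one of RSAD2 (5.13% of all transcripts). From 3 to 14 days, 2 were (0.123% of all transcripts), IFIT3 and the MX1 model XM_002723759.3, which fell by 2.61 on the log2 scale (SE 0.36, q = 0.042). Another MX1 model, XM_008252472.2, had -0.69 in that comparison (SE 0.30, q = 0.301) and was at 130, 82.4, and 100 CPM at 14 days, the most abundant MX1 model there. The difference between models of a gene was not tested, and how the authors' tool divides reads between overlapping models bears on each of these values. Leaving out single libraries gave 3 to 7 transcripts at 3 hours, with 3 without control replicate 1 or 2 or TL-3h replicate 1. It gave 0 to 4 at 3 days, with 0 without control replicate 1 or 2 or TL-3d replicate 1 or 2, and 0 to 7 from 3 to 14 days, with 7 without control replicate 3.

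**Figure D4:**
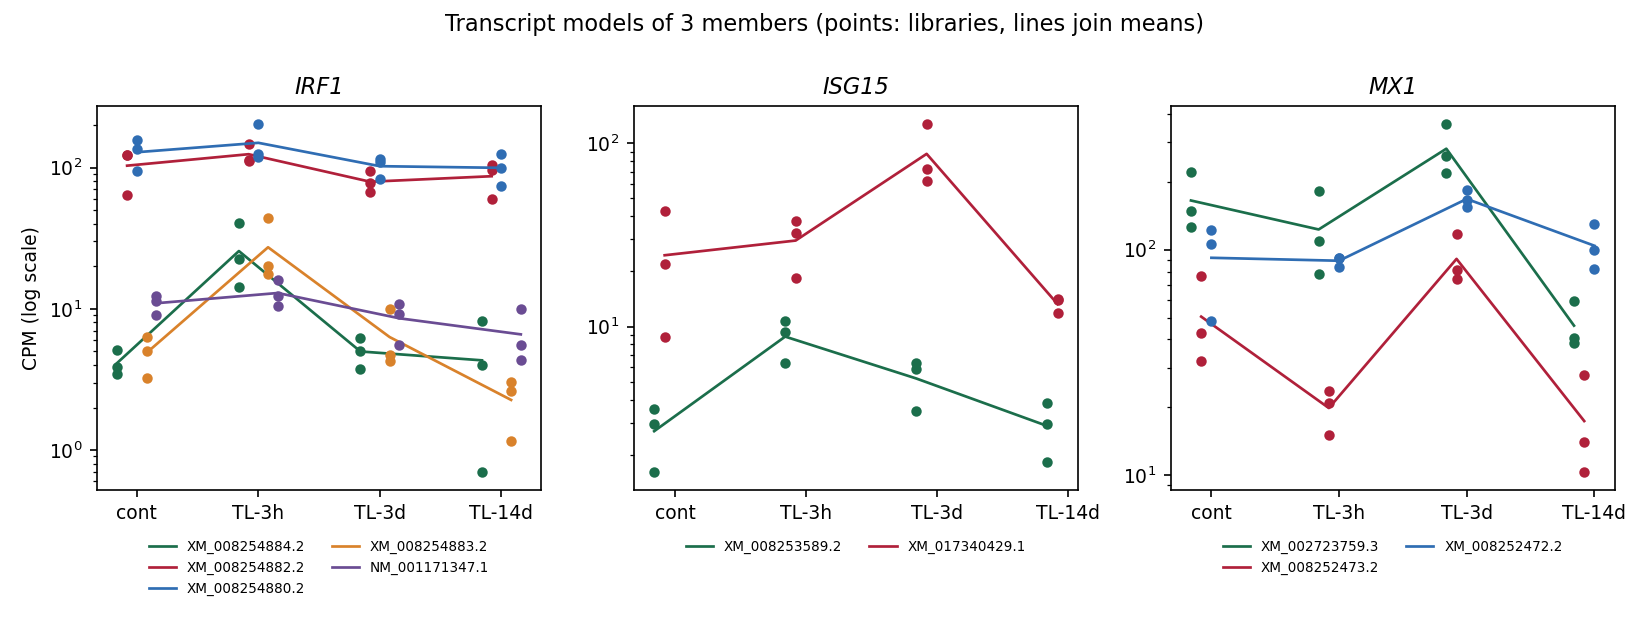
Transcript models of IRF1, ISG15, and MX1, as CPM on a log axis against the group. Points are libraries and lines join the means of 3 libraries. The IRF1 models XM_008254884.2 and XM_008254883.2 peak at 3 hours while the 2 abundant models lie between 59.6 and 205 CPM, and XM_008252472.2 is the highest MX1 model at 14 days.

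Genes with the most similar pattern were found by the root mean square difference of log2 CPM, each gene taken from its own mean, over the 12 libraries and 13253 genes that averaged 1 CPM or more. MX1 was closest to LOC100008606, a Mx2 row (0.17), IFI44L (0.23), and HERC5 (0.26), which are interferon-stimulated too. IRF7 was closest to XAF1 (0.36), LOC100345779 (0.39), and OASL (0.40), ISG15 to LOC100009451 (0.35), LOC100342826 (0.41), and LOC100356242 (0.45), and IFIT3 to LOC100342069 (0.34), LOC100342826 (0.44), and LOC100356242 (0.47). IFIT2 was near USP18 (0.44), LOC100342826 (0.49), and LOC100009451 (0.51), and RSAD2 near ISG15 (0.49), IFIT3 (0.51), and IFIT5 (0.53). CXCL10 came closest to IFIT2 (0.53), LOC100342826 (0.69), and USP18 (0.70), and CXCL11 to SPATA18 (0.70), CXCL10 (0.72), and CIITA (0.75). The distance is not divided by the size of a gene's changes, so its size cannot be compared between members. The 3 nearest to IRF1 were RIOK3 (0.17), PNRC1 (0.18), and LOC100359108 (0.18), none of them a member, a listed gene, or a row described as interferon-induced. These distances are descriptions, and the libraries share group, depth, and tissue composition. Fractions made up 10 of the 12 count values of MX1, 5 of LOC100008606, and 12 of LOC100342069. Whether reads divided between similar genes made such rows alike was not tested.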

How the data were processed

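RNA sequencing of conjunctiva gave 12 libraries, 3 in each of 4 groups set by the sample titles. Per the study's methods and the submitters' processing notes, 150 bp paired-end reads of stranded mRNA libraries were mapped to OryCun2.0 with STAR 2.6.0c and summarized with GeneData Profiler Genome. The authors deposited an estimated count, not divided by library size, and an FPKM value, divided by transcript length and depth, for each gene and transcript, and 23.4% of the estimated counts per gene were fractions. How reads with several placements were divided was not given in the sources used here. The FPKM values were used only to compare levels between genes.

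Estimated counts were rounded to whole numbers, filtered with filterByExpr (minimum count 10, minimum total count 15), and scaled with TMM factors (edgeR 4.0.16, R 4.3.3). A single quasi-likelihood model of the 4 groups, with no covariate, was fitted to the 12 libraries, with Benjamini-Hochberg adjustment over 14835 genes and a threshold of 0.05. Standard errors were derived from the fold change and the test statistic. Transcripts were tested likewise. Per the labels right eyes were operated, and the study averaged 3 eyes per group, so the operated libraries are from separate animals. For the control eyes this is not stated, and p-values measure the spread between these samples. An exact permutation test of 3 against 3 libraries cannot go below a p of 0.1 and was not used. No pair of libraries in a group was a copy (lowest squared difference over counting variance 80.9, near 1 for copies).

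The members and lists were chosen with earlier results of these data known. The 8 pathway lists held 143 symbols, of which 103 were matched by name and 3 by gene ID, and 9 marker lists were read as whole lists, by their sums, counts of called genes, and medians. Named were all 9 members and every ligand, and from each pathway list up to 3 called genes with the largest rise and 2 with the largest fall with a mean of at least 1 CPM, besides those said to be chosen later. Alternatives were other scalings, no filter, DESeq2 1.42.0, limma-trend 3.58.1 (pseudocounts 0.5 and 2), only the 6 libraries compared, a replicate block, and leaving out each library. Depth was 27111276 to 38591374 counts, and a count of 0 allows up to 3 counts with 95% confidence, for counting error only. No promoter or protein sequence was analysed here. Values of 1 further gene are not reported here.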

Additional observations from a re-analysis of the deposited data

Results flagged for a closer look

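Differences between time points after the operation were past the threshold in their own test for several members, with the operated groups compared directly. From 3 hours to 3 days the log2 difference (TL-3d minus TL-3h) was 1.18 for MX1 (q = 0.0106), 2.42 for IFIT2 (q = 0.00565), 1.51 for IFIT3 (q = 0.00621), 2.25 for IRF7 (q = 0.00683), 2.58 for CXCL10 (q = 0.0119), and 2.74 for CXCL11 (q = 0.0268). From 3 days to 14 days (TL-14d minus TL-3d) it was -2.54 for ISG15 (q = 0.0344), -1.66 for MX1 (q = 0.0297), -3.52 for IFIT2 (q = 0.0248), -3.46 for IFIT3 (q = 0.0175), -2.89 for RSAD2 (q = 0.0263), and -3.39 for CXCL10 (q = 0.0386). Single outlying libraries were not tested for in groups of 3.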

How the results depend on the processing

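The count of members past the threshold was 2 at 3 hours, 5 at 3 days, 0 at 14 days, 6 from 3 hours to 3 days, and 6 from 3 to 14 days. With single libraries left out it ranged from 1 to 3, 1 to 5, 0 to 0, 5 to 7, and 0 to 7, and that of 101 pathway genes from 29 to 52, 5 to 35, 0 to 2, 41 to 58, and 0 to 31. For the members' transcripts the ranges were 3 to 7, 0 to 4, 0 to 2, 5 to 11, and 0 to 7. With only the 6 libraries compared, 1 member was left at 3 hours, 3 members from 3 to 14 days, 4 pathway genes (of 26), and 0 transcripts (of 2) in that last comparison. DESeq2 gave 2 pathway genes and 2 transcripts at 14 days, and 47 and 10 from 3 to 14 days. From 3 to 14 days, library size only gave 16 pathway genes, and limma-trend gave 5 and 6 transcripts with pseudocounts of 0.5 and 2. Without a filter on low counts, 2 transcripts were left at 3 days, where more transcripts were tested. With control replicate 3 and TL-14d replicate 1 both left out (chosen after seeing the data), 1 member, 10 pathway genes, and 2 transcripts were past the threshold at 14 days. Control replicate 3 held the lowest control level of every member, and the count over all genes is not given for this choice. The causes were not tested.

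Same-numbered libraries did not regularly deviate together (correlations of -0.187 to 0.487 over 18 pairs, 8 of them over 0.1). With so few libraries per group, these values cannot decide whether the numbers pair the samples. With a replicate block, 4 members were past the threshold at 3 hours, 7 at 3 days, 0 at 14 days, 8 from 3 hours to 3 days, and 6 from 3 to 14 days, and 5 transcripts in the last comparison. Under the block IRF7 was past it at 3 hours on the lower side (q = 0.00293) and at 3 days on the higher side (q = 0.0242). The share of all genes past the threshold with the block is not given here, so these counts cannot be read as particular to the members.

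Over 45 results of single members and 21 alternatives each, 838 kept direction and side of the threshold, 66 lost the threshold, 28 gained it, and 13 turned direction or came to 0. At 3 hours, library size only, which moved the median of all genes from 0.02 to -0.47, brought ISG15 (0.00), IFIT2 (-0.50), IRF1 (-0.06), and CXCL10 (-0.34) to 0 or below, DESeq2 and its size factors turned IFIT2 (-0.01 each), and leaving out control replicate 3, alone or with TL-14d replicate 1, turned IFIT2 (-0.41) and CXCL10 (-0.34). With single libraries left out, IFIT2 at 3 hours ranged from -0.61 (without TL-3h replicate 2) to 0.33, CXCL10 at 3 hours from -0.34 to 0.68, and IRF1 from 3 days to 14 days from -0.21 to 0.16 (without TL-14d replicate 3), with 0.10 without TL-3d replicate 1. None of these was past the threshold. None of the interferon ligands passed the filter on low counts in the reported fit.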
